A study of Glycine max with 24 samples.

Results

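The genes described here are soybean genes for ascorbate peroxidases (APX), superoxide dismutases (SOD), PRX peroxidases, glutathione S-transferases (GST), aldehyde dehydrogenases (ALDH) and ferritins (SFER). They were chosen by a rule on names, set with earlier results of these data known, so they were not picked blind to the data. A gene was taken where its symbol, or a synonym in the RefSeq gene table, began with APX, GST, GPX, SOD, PRX, ALDH or SFER. This gave 100 probe sets of 60 genes, out of 37593 soybean probe sets on the array, which name 6031 genes in all where a probe set has 1 gene. Of the 60 genes, 38 were GST, 9 ALDH, 4 PRX, 4 SFER, 3 SOD and 2 APX, and no gene matched GPX. A probe set is a group of short oligonucleotides that together measure 1 transcript; each gene is represented by its probe set of highest mean over all arrays. For 13 genes the symbol is a locus number and the name comes from a synonym: GSTU51 is LOC548030, GSTU59 is LOC548029, GSTZ2 is LOC100526991, GSTU3 is LOC547576, GSTU26 is LOC547578 and GSTU5 is LOC100306119. SFerH-1 is a synonym of the gene listed as H-1.

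Reactive oxygen species, made in chloroplasts, mitochondria, peroxisomes and the cell wall, are removed in steps. Superoxide dismutases turn superoxide into hydrogen peroxide, and ascorbate peroxidases reduce hydrogen peroxide with ascorbate, which dehydroascorbate reductases help to regenerate. Glutathione S-transferases join glutathione to reactive or foreign compounds; the tau and phi classes are the plant classes best known for detoxification. Aldehyde dehydrogenases oxidise aldehydes, including those released from oxidised lipids, to acids. Ferritins store iron inside plastids, which keeps free iron from generating hydroxyl radicals. In plants attacked by sap-feeding insects these families are commonly studied as parts of the oxidative response.

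Transcripts were measured in leaves of the third trifoliate of 2 cultivars, the aphid-resistant LD05-16060 and the aphid-susceptible SD01-76R, with and without soybean aphids. Infested plants carried 30 aphids, 10 to a leaflet, of which 21 or more were adults; sampling followed 7 or 1 days later. Plants grew at 25 C in chambers, with light for 16 h. There were 24 single-colour arrays in 8 groups of 3: infested and uninfested resistant leaves of day 7, infested and uninfested susceptible leaves of day 7, and the same 4 groups on day 1. The question the groups address is how each cultivar's leaves respond to aphids on each day, and whether the cultivars differ in that response.

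Values are log2 intensities after quantile normalization, over which the 5th, 50th and 95th percentiles were 5.28, 7.61 and 11.16. Levels near the 5th percentile are not shown to be above background, and levels of different probe sets are not comparable with each other. A gene was called where the adjusted p of limma, taken over all soybean probe sets, was under 0.05; differences are given ± SE, group means ± SD, with n = 3 arrays per group. Uninfested susceptible leaves of day 1 lay at 1 end of the arrays, though not clear of every other array. On the leading principal component, which held 39.6% of variance, they had scores of 109, 69.1 and 75.2 for replicates 1, 2 and 3, against 66.2 on the next highest array, infested resistant day 1 replicate 2. The 3' minus 5' signal of control transcripts, a sign of RNA quality, was 2.01, 1.20 and 1.31 on the uninfested susceptible arrays and 1.67 on the infested resistant one. It was also 1.52 and 1.28 on infested susceptible day 7 replicates 3 and 2, both above uninfested susceptible replicate 2. On infested susceptible day 1 replicate 3 it was 1.202, nearly the same as the 1.203 of uninfested susceptible replicate 2. The 8 sieve element occlusion genes, markers of phloem, had summed linear levels of 1062 to 2511 in uninfested susceptible leaves of day 1. On day 1 the sums were 620 to 970 in infested susceptible leaves and 434 to 1164 in infested resistant ones. In the 5 other groups they were 372 to 971. Their mean log2 level was 5.70 to 5.93 in all day 7 groups but uninfested susceptible, and in uninfested resistant leaves of day 1. These means are near the 5th percentile and not shown to be above background. The defining leaf genes CAB3 and LHCP (LOC547819), for light-harvesting proteins, had means over all arrays of 14.73 and 13.97.

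In susceptible leaves infested for 7 days, 3 of the 60 genes rose and 2 fell. ALDH3H1, ALDH10A2 and GSTU1 were the genes that rose and GSTU51 and ALDH2C8 those that fell, all by between 0.63 and 1.46 log2 units. The 5 genes are 8.33% of the 60, where 2.84% of all soybean probe sets passed (1.94% higher, 0.894% lower). Shares of this kind compare sets of unlike level, as 45 of the 60 genes had a mean of 7.62 or more. With only the 18797 probe sets that bright in the fit, 775 passed, among them 5 of the 45 genes. In 19 of the 60 genes (31.7%) infested and uninfested arrays were separated without overlap, against 24.3% of all probe sets, and the median difference was 0.03 over the 60 genes and −0.03 over all probe sets. Leaving out infested replicate 1, 2 or 3 gave counts of 1, 3 and 2, and leaving out uninfested replicate 1, 2 or 3 gave 1, 5 and 0. The 3' minus 5' signal averaged 1.25 in infested and 1.04 in uninfested arrays, and the summed phloem marker levels ran from 462 to 529 in infested and from 611 to 971 in uninfested ones; their part in the result was not tested. With the 3' minus 5' signal as a covariate the count was 9. Without scaling it was 7 higher and 0 lower, with the median of all probe sets at 0.26, and with median centring 4 higher and 1 lower.

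In susceptible leaves infested for 1 day, APX2 and GSTU47 rose and ALDH3J2 fell. These 3 genes are 5% of the 60, where 5.01% of all probe sets passed (1.72% higher, 3.29% lower), a share like that of the whole array. Infested and uninfested arrays were separated in 26 of the 60 genes (43.3%), against 31% on the whole array; 19 of them lay above the uninfested arrays, as did 15.2% of probe sets. The median difference was 0.25 over the 60 genes and 0.00 over all probe sets. Leaving out uninfested replicate 1, 2 or 3 gave counts of 0, 3 and 2, and leaving out any 1 infested array gave 0. It was 0 with no scaling and 0 with the 3' minus 5' signal as a covariate.

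In resistant leaves no gene of the 60 passed on either day. On day 7 the share of all probe sets that passed was 0.00266%, and on day 1 it was 0%. At an unadjusted p under 0.05 limma gave 2 of the 60 genes on day 7 (3.33%, against 2.85% of all probe sets). On day 1 it gave 8 genes (13.3%, against 7.62% of all probe sets), 2 higher and 6 lower. Overlap was absent in 5 genes on day 7 (8.33%, against 7.43% of all probe sets) and in 6 on day 1 (10%, against 9.66%). Without infested replicate 3, 1 gene passed on day 1, ALDH3J2. The plot of aphid effects by family shows the 4 comparisons side by side.

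**Figure D1:**
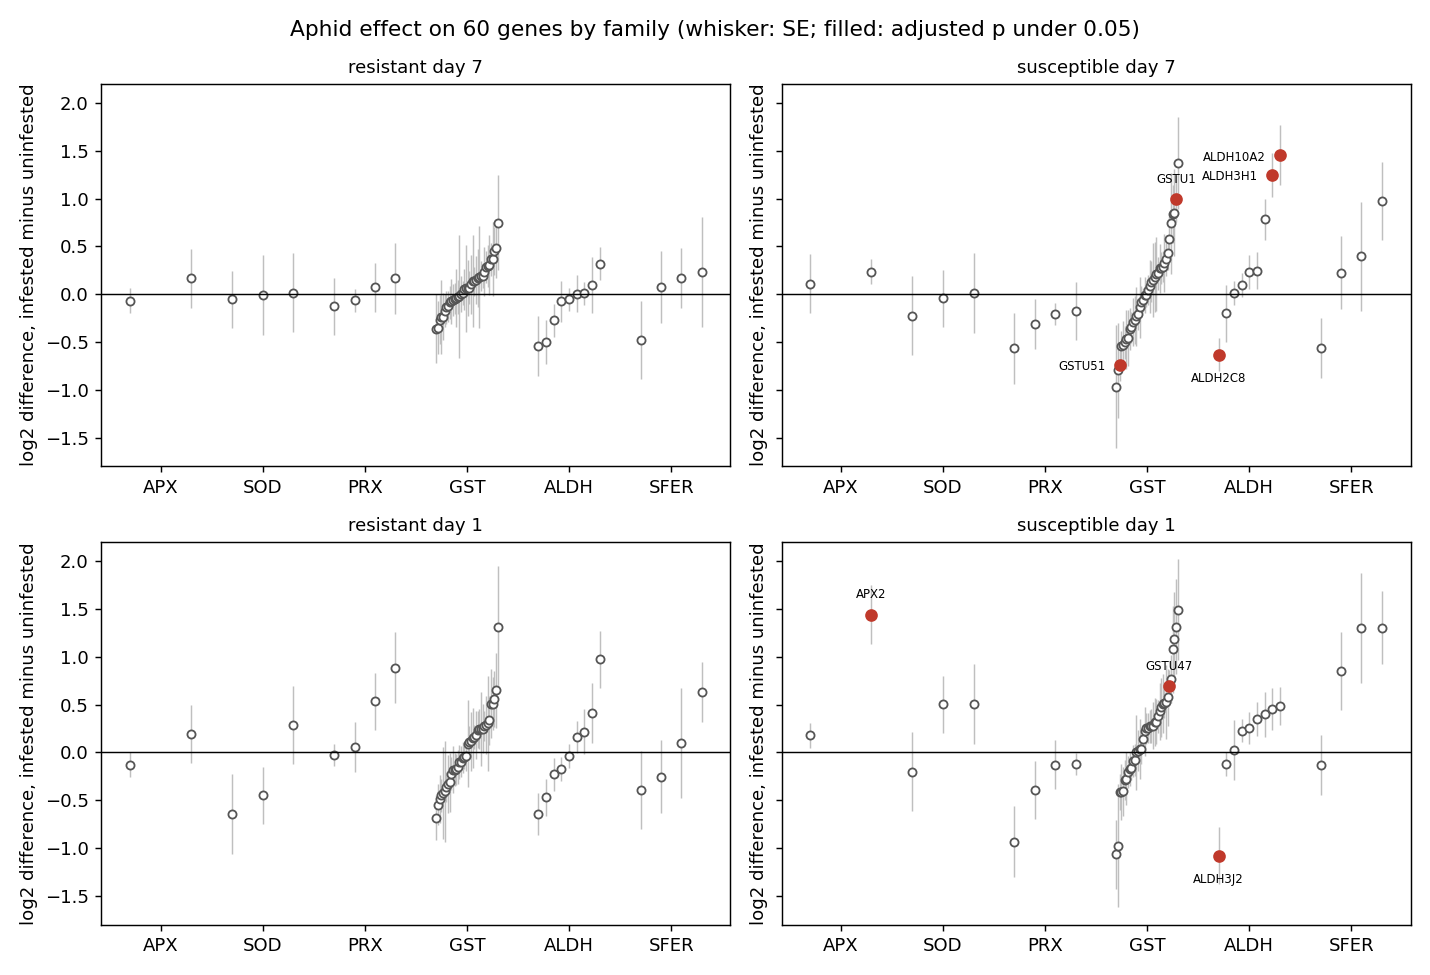
Infested minus uninfested log2 difference of each of the 60 genes (vertical axis), grouped by family along the horizontal axis and ordered by size within a family, for both cultivars and days. Points are estimates, whiskers standard errors and filled points genes with an adjusted p under 0.05; 5 are filled in susceptible leaves of day 7, 3 in susceptible leaves of day 1 and 0 in resistant leaves of either day.

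Whether the cultivars differed in their aphid effect, resistant minus susceptible, was itself tested. On day 7 it passed for ALDH3H1, GSTU51 and ALDH10A2, 3 of 60 genes (5%), against 0.676% of all probe sets (0.279% higher, 0.396% lower). On day 1 it passed for ALDH3J2 alone among the 60 (1.67%), against 0.886% of all probe sets (0.633% higher, 0.253% lower). When 1 of the 12 arrays was left out, the day 7 calls were kept in 7 fits for ALDH3H1, 4 for GSTU51 and 4 for ALDH10A2. The day 7 calls were 1 higher and 2 lower; without scaling 0 were higher and 3 lower, and on day 1 median centring gave 1 higher and 1 lower. The day 7 count ran from 0 to 4 and the day 1 count from 0 to 11 when single arrays were left out. Other values lay near the threshold: on day 1, GSTU59 had −1.26 ± 0.35 (adjusted p = 0.0650) and ALDH7B1 −1.10 ± 0.31 (adjusted p = 0.0636). The count of 11 came without infested resistant day 1 replicate 3, and it was 7 without uninfested resistant day 1 replicate 3.

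Of the ascorbate peroxidase genes, APX2 rose on day 1 in susceptible leaves and APX1 did not pass in any comparison. APX2 had 10.42, 10.57 and 10.66 in infested susceptible leaves of day 1, against 8.49, 9.38 and 9.45 in uninfested ones. The uninfested arrays lay below all other arrays of the experiment, and the groups did not overlap. The rise was 1.44 ± 0.31, or 2.72-fold (10.55 ± 0.12 infested against 9.11 ± 0.53 uninfested, adjusted p = 0.0216); it was kept in 2 of the 6 fits that left out 1 array, those without uninfested replicate 2 or 3. In infested resistant leaves of day 1 APX2 had 10.58, 10.79 and 11.22, against 11.17, 10.82 and 10.02 in uninfested ones. These overlapped, and all 6 lay above the uninfested susceptible arrays. Among uninfested leaves of day 1, APX2 was higher in resistant than in susceptible leaves by 1.56 ± 0.31 (adjusted p = 0.00276), and in uninfested susceptible leaves it was higher on day 7 than on day 1 by 1.65 ± 0.31 (adjusted p = 0.00583). Each of these 3 differences uses the same 3 uninfested susceptible arrays of day 1. They carry the 3' minus 5' and phloem marker signals given above, whose part in the result was not tested; with the 3' minus 5' covariate the aphid difference was 1.18 (adjusted p = 0.225). The other 2 probe sets of APX2, of means 5.76 and 6.25, had −0.09 ± 0.27 and 0.28 ± 0.15 on day 1, and the average over the gene's probe sets was 0.54. APX1 had 13.17 ± 0.06 in infested susceptible leaves of day 1 and 12.99 ± 0.09 in uninfested ones. The differences of this probe set in the 4 aphid comparisons lay between −0.13 and 0.24. The other APX1 probe sets, of means 10.72, 10.22, 6.69 and 5.35, had −0.12, −0.20, −0.48 and −0.17 in susceptible leaves of day 1. On day 7 they had 0.01, −0.45, 0.27 and 0.14, and none of these values passed.

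No superoxide dismutase gene passed in any of the 12 comparisons. SODB and SODB2, whose synonym names an iron superoxide dismutase, had differences of 0.50 ± 0.30 and 0.51 ± 0.42 in susceptible leaves of day 1, and between −0.04 and 0.01 on day 7. SODB2 had 13.46, 13.28 and 13.40 in infested susceptible leaves of day 1, against 12.16, 13.21 and 13.25 in uninfested ones. The groups did not overlap, but only uninfested replicate 1 lay far below. In infested resistant leaves of day 1 SODB2 had 13.43, 11.04 and 13.55 and SODB had 14.01, 12.40 and 14.13. Replicate 2, the array with the 3' minus 5' signal of 1.67, was the lowest of all 24 for both genes. SOD1 had differences between −0.22 and 0.29 in the 4 aphid comparisons.

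All 4 PRX genes had differences below 0 in susceptible leaves on both days and none passed. The medians were −0.26 on day 7 and −0.26 on day 1, against −0.03 and 0.00 over all probe sets. PRX2 had 10.56, 10.14 and 10.25 in infested susceptible leaves of day 7, against 10.70, 10.63 and 11.30 in uninfested ones, and 10.95, 10.95 and 10.63 in infested leaves of day 1, against 12.34, 11.53 and 11.46 in uninfested ones. The infested arrays lay below the uninfested ones on both days. The differences were −0.56 ± 0.37 (adjusted p = 0.458) on day 7 and −0.93 ± 0.37 (adjusted p = 0.126) on day 1. PRX2 in resistant leaves of day 1 had 11.02, 11.84 and 10.10 with aphids, against 9.69, 9.68 and 10.93 without. The highest uninfested array lay between the infested ones, so the groups overlapped. The difference was 0.89 ± 0.37 (adjusted p = 0.623), and the difference between cultivars in the aphid effect was 1.82 ± 0.52 (adjusted p = 0.0668). The call that PRX2 did receive was the cultivar difference: in uninfested leaves of day 1 it was lower in resistant than in susceptible leaves by 1.67 (SE 0.37; 10.10 ± 0.72 in resistant against 11.77 ± 0.49 in susceptible leaves, adjusted p = 0.00519), a call kept without any 1 of the 6 arrays. On day 7 the cultivar difference was −0.99 ± 0.37 (adjusted p = 0.16). PRX2B, whose probe set had the highest mean of the PRX genes, had 12.10 ± 0.29 in infested susceptible leaves of day 1, against 12.49 ± 0.09 in uninfested ones.

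Among the 38 glutathione S-transferase genes, 1 passed with aphids in susceptible leaves of day 1 and 2 on day 7. Of all probe sets, 5.01% passed on day 1 and 2.84% on day 7. Of the 26 tau class genes, 20 lay above 0 on day 1 in susceptible leaves, with a median of 0.32, and 12 on day 7, with a median of −0.01. The shares of all probe sets above 0 were 50.6% on day 1 and 45.7% on day 7. In resistant leaves the tau medians were 0.07 on day 7 and 0.11 on day 1. The 4 phi genes had medians between −0.14 and 0.21 in the 4 aphid comparisons, and the 3 lambda genes between −0.18 and 0.13. Several of these genes lie side by side in the RefSeq gene order of Glycine_max_v4.0: GSTU1 and GSTU3 are neighbours, as are GSTU47 and GSTa, and only 2 protein-coding genes lie between GSTa and GSTU51. Near-identical genes can share probes: 16 of the 60 representative probe sets have the suffix _s_at and 1 has _x_at, which mark probes that match more than 1 transcript.

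GSTU1, a tau class gene, had 10.60, 10.56 and 10.87 in infested susceptible leaves of day 7, against 9.68, 9.90 and 9.45 in uninfested ones. All 3 infested arrays were above all 3 uninfested ones. The rise was 1.00 ± 0.25, or 1.995-fold (adjusted p = 0.0329). It was kept in 1 of the 6 fits that left out 1 array, the one without uninfested replicate 2. GSTU1 in resistant leaves of day 7 had 9.85, 10.47 and 10.70 with aphids, against 11.12, 10.27 and 10.32 without. These groups overlapped. GSTU3, its neighbour, had 9.91, 8.93 and 8.83 in infested susceptible leaves of day 7, against 10.35, 10.36 and 9.86 in uninfested ones, and overlapped.

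GSTU51 fell with aphids in susceptible leaves of day 7. It had 9.21, 9.28 and 9.13 in infested leaves, against 10.06, 9.82 and 9.94 in uninfested ones. The groups were well apart, and the fall was 0.74 ± 0.17, or 1.66-fold (adjusted p = 0.0237). It was kept in 2 of the 6 fits that left out 1 array, those without replicate 2 of either group. In resistant leaves of day 7 it had 9.47, 9.40 and 9.61 with aphids, against 9.23, 8.99 and 9.17 without. Here the infested arrays were the higher ones, with no overlap, though the difference of 0.36 ± 0.17 did not pass (adjusted p = 1). The difference between cultivars in the aphid effect was 1.10 ± 0.24 (adjusted p = 0.0402). Without scaling, the susceptible difference was −0.30 (adjusted p = 0.55) and the difference between cultivars 0.66 (adjusted p = 0.436).

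GSTU47, whose probe set had the highest mean of the GST genes, had 13.06, 13.07 and 13.16 in infested susceptible leaves of day 1, against 12.09, 12.49 and 12.63 in uninfested ones. The infested arrays lay close together above the uninfested ones. The rise was 0.69 ± 0.18, or 1.61-fold (adjusted p = 0.0343). Among the 6 fits that left out 1 array, it was kept only without uninfested replicate 2 or 3. Another of the gene's 4 probe sets was also called, by 0.80 ± 0.20, but it has the suffix _x_at and can match more than 1 transcript. The other 2, of means 8.95 and 5.66, had −0.42 ± 0.54 and −0.07 ± 0.19, and the average over the 4 was 0.25 (adjusted p = 0.434). With the 3' minus 5' covariate the difference was 0.41 (adjusted p = 0.36). The probe set of mean 8.95 rose on day 7 by 2.03 ± 0.54 (adjusted p = 0.0474), where the representative one had 0.36 ± 0.18. GSTU18 had 1.49 ± 0.53 on day 1 (adjusted p = 0.0913) and GSTU62 had 1.37 ± 0.48 on day 7 (adjusted p = 0.134), neither past the threshold. GSTU44 had 5.26 ± 0.39 in infested resistant leaves of day 1, against 5.95 ± 0.31 in uninfested ones, near the 5th percentile and overlapping (adjusted p = 0.623). DHAR3, a dehydroascorbate reductase gene taken through its GST synonym, had 10.29, 10.64 and 10.68 in infested susceptible leaves of day 1, against 11.85, 11.43 and 11.53 in uninfested ones. The groups were well apart, and the difference was −1.07 ± 0.36 (adjusted p = 0.0811).

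Of the aldehyde dehydrogenase genes, 8 of 9 passed in at least 1 of the 12 comparisons, against 16 of 38 GST, 1 of 2 APX, 1 of 4 PRX, 1 of 4 ferritin and 0 of 3 SOD genes. In all that was 27 of the 60 genes; of all probe sets, 27.7% passed in at least 1 comparison. ALDH10A1 was the member that passed in none. With aphids in susceptible leaves of day 7, 2 of 9 rose, 1 fell and 6 did not pass. Of all probe sets, 1.94% passed higher and 0.894% lower in that comparison.

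ALDH10A2, whose synonym BADH1 names a betaine aldehyde dehydrogenase, had 10.95, 11.45 and 10.55 in infested susceptible leaves of day 7, against 9.25, 10.08 and 9.25 in uninfested ones. The infested arrays were all higher. The rise was 1.46 ± 0.32, or 2.74-fold (10.98 ± 0.45 infested against 9.52 ± 0.48 uninfested, adjusted p = 0.0167), and it was kept in 2 of the 6 fits that left out 1 array, those without infested replicate 3 or uninfested replicate 2. In resistant leaves of day 7 it had 10.30, 10.07 and 11.54 with aphids, against 11.13, 11.35 and 11.05 without. Uninfested resistant arrays lay within the range of the infested susceptible ones, and infested resistant arrays lay on both sides of them. The difference between cultivars in the aphid effect was −2.0 ± 0.45 (adjusted p = 0.0438). Uninfested leaves of day 7 differed by 1.65 ± 0.32, higher in resistant ones (adjusted p = 0.00983). In uninfested resistant leaves ALDH10A2 was higher on day 7 than on day 1 (9.50, 8.87 and 9.50) by 1.89 ± 0.32, or 3.70-fold (adjusted p = 0.00295), a call kept in all 6 fits that left out 1 array. In uninfested susceptible leaves of day 1 it had 9.75, 9.51 and 9.70, which overlapped the day 7 values.

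ALDH3H1, a member of a class known in Arabidopsis for induction by stress, had 7.35, 7.10 and 7.48 in infested susceptible leaves of day 7, against 6.19, 6.34 and 5.67 in uninfested ones. No infested array came near the uninfested ones. The rise was 1.25 ± 0.23 (adjusted p = 0.00682), the smallest p of the 60 genes in that comparison; its uninfested values are near the 5th percentile, so no fold is given. It was kept in 5 of the 6 fits that left out 1 array; without uninfested replicate 3 it was 1.05 (adjusted p = 0.0582). ALDH3H1 in resistant leaves of day 7 had 6.40, 6.89 and 6.86 with aphids, against 7.37, 7.27 and 7.01 without. Infested resistant leaves were the lower ones without overlap, by a difference of −0.50 ± 0.23 that did not pass (adjusted p = 1). The difference between cultivars in the aphid effect was −1.75 ± 0.33 (adjusted p = 0.0217). Uninfested resistant leaves exceeded uninfested susceptible ones by 1.16 ± 0.23 on day 7 (adjusted p = 0.0145), and exceeded their own day 1 values (5.92, 5.75 and 5.92) by 1.36 ± 0.23 (adjusted p = 0.00342). The gene's other probe set, of mean 5.86, had 0.27 ± 0.16 with aphids in susceptible leaves of day 7 (adjusted p = 0.393). In resistant leaves of day 7 that probe set had 0.22 ± 0.16. Its difference between cultivars in the aphid effect was −0.05 ± 0.22 (adjusted p = 0.946), so the call rests on the representative probe set.

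ALDH2C8 belongs to the class that in Arabidopsis includes an enzyme making ferulic and sinapic acids. It had 8.02, 8.04 and 7.92 in infested susceptible leaves of day 7, against 8.77, 8.64 and 8.46 in uninfested ones. The infested arrays were all lower, by 0.63 ± 0.17 (a log2 difference of −0.63, adjusted p = 0.0488). The call was lost in all 6 fits that left out 1 array, and the difference was −0.23 without scaling. In resistant leaves of day 7 it had 8.46, 7.87 and 8.35 with aphids, against 7.48, 8.08 and 8.16 without, and overlapped. The difference between cultivars was 0.95 ± 0.24 (adjusted p = 0.0647), and the difference between days in the susceptible aphid effect, day 7 minus day 1, was −0.89 ± 0.24 (adjusted p = 0.157).

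The 4 genes ALDH10A2, ALDH3H1, GSTU51 and ALDH2C8 were also the 4 of the 60 called between the uninfested cultivars on day 7 (6.67%, against 2.28% of all probe sets, 1.36% higher and 0.918% lower). That count was 0 without uninfested susceptible replicate 3 or uninfested resistant replicate 1, 1 without uninfested susceptible replicate 1, and 1 without scaling or with the groups compared fitted alone. Of the 2 leaf photosynthesis genes, 1 was called lower in the same comparison (median −0.84) and 1 lower on day 7 in uninfested resistant leaves (median −0.79); of 38 seed storage and maturation genes, 1 and 4 were called higher. The part of these shifts was not tested. Relative to uninfested susceptible leaves, uninfested resistant leaves were higher for ALDH10A2 and ALDH3H1 and lower for GSTU51 (−0.81 ± 0.17, adjusted p = 0.0177) and ALDH2C8 (−0.72 ± 0.17, adjusted p = 0.0324). Both comparisons use the same 3 uninfested susceptible arrays of day 7, so they are not independent. Of the 4, ALDH10A2, ALDH3H1 and GSTU51 also passed between days in uninfested resistant leaves, a comparison that shares the 3 uninfested resistant arrays of day 7 with the one between cultivars. There GSTU51 was lower on day 7 by 0.64 ± 0.17 (9.13 ± 0.12 on day 7 against 9.77 ± 0.06 on day 1, adjusted p = 0.0387), a call lost in all 6 fits that left out 1 array. The plot of day 7 genes shows the values of all 24 arrays.

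**Figure D2:**
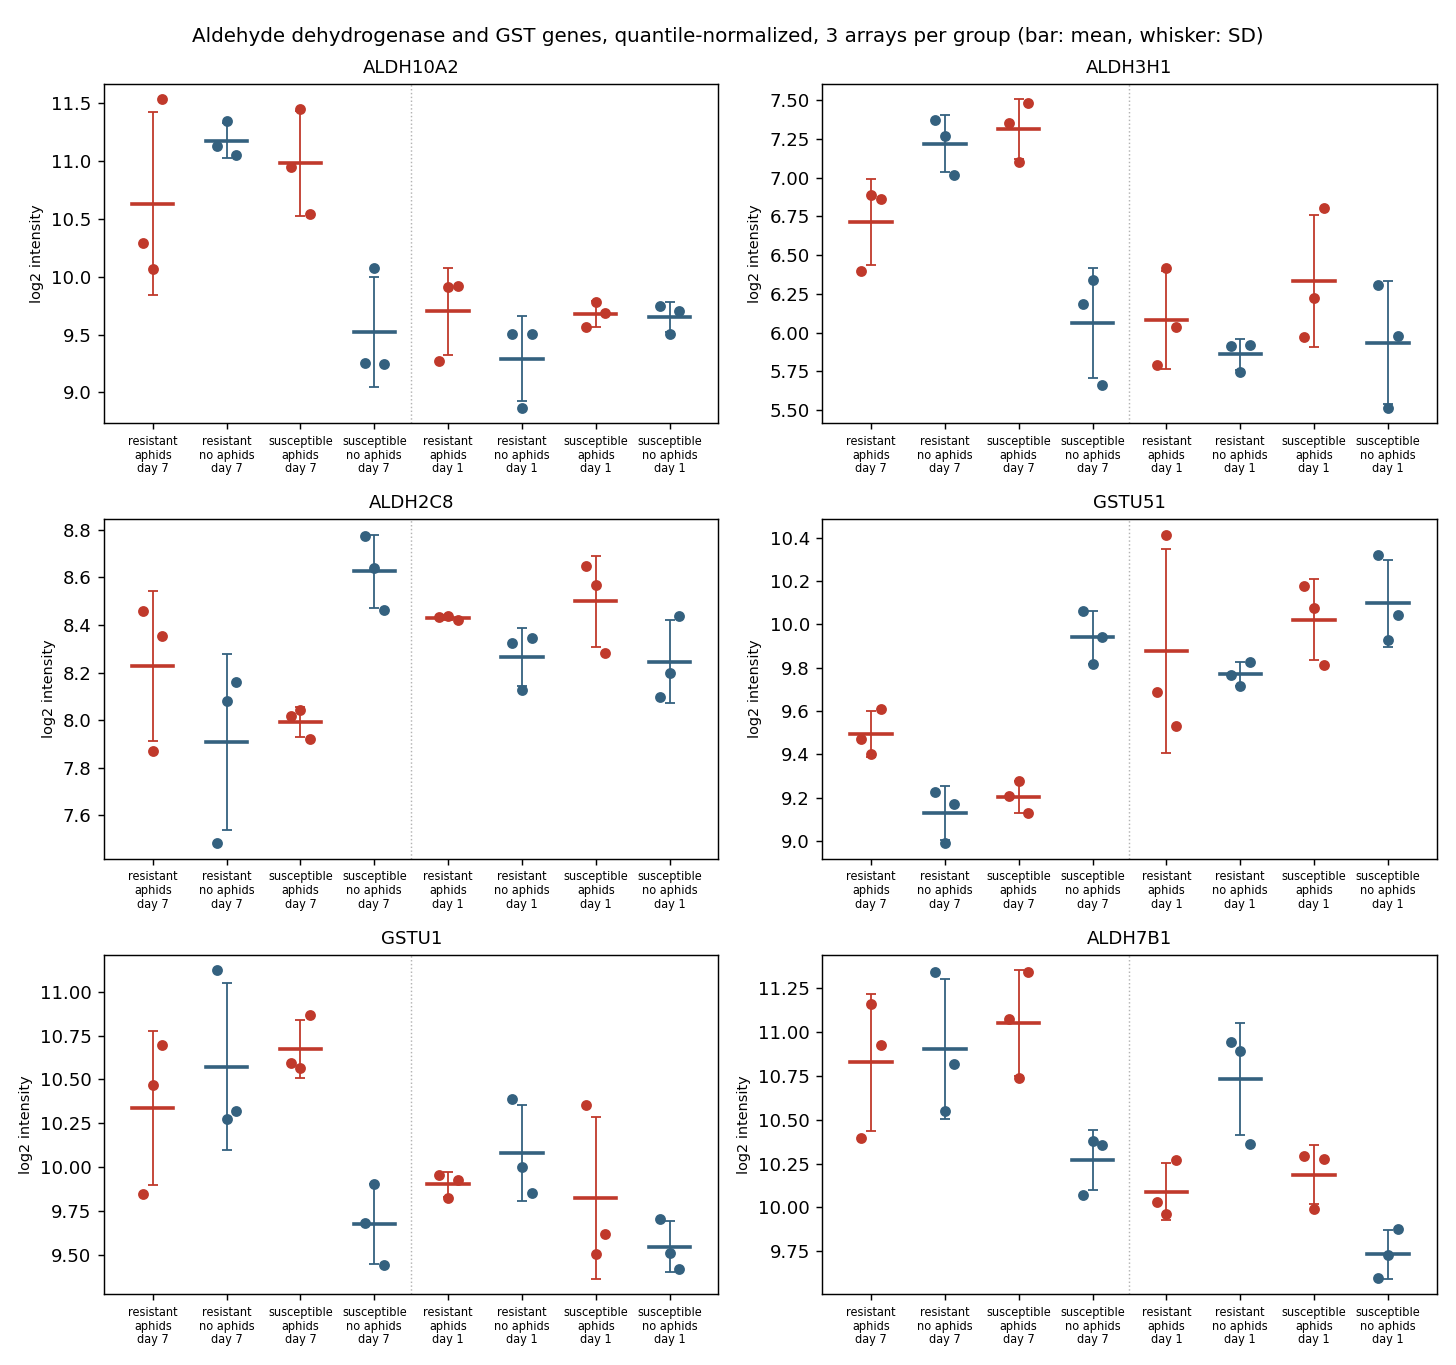
Quantile-normalized log2 intensity (vertical axis) of ALDH10A2, ALDH3H1, ALDH2C8, GSTU51, GSTU1 and ALDH7B1 in the 8 groups (horizontal axis). Points are arrays (red infested, blue uninfested), bars means and whiskers SD of 3 arrays; the dotted line separates day 7 from day 1. ALDH10A2 and ALDH3H1 were at 9.52 and 6.06 in uninfested susceptible leaves of day 7, below the 3 other day 7 groups.

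ALDH7B1, whose synonym TP55 marks it as a member of the turgor-responsive class, had 11.08, 10.74 and 11.34 in infested susceptible leaves of day 7, against 10.07, 10.38 and 10.35 in uninfested ones. The groups did not overlap, and the difference of 0.78 ± 0.22 missed the threshold (adjusted p = 0.0558). In resistant leaves of day 1 it had 10.03, 9.96 and 10.27 with aphids, against 10.94, 10.89 and 10.36 without, a difference of −0.64 ± 0.22 (adjusted p = 0.622). Among uninfested leaves of day 1 it was higher in resistant than in susceptible ones by 1.00 ± 0.22 (adjusted p = 0.00453).

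ALDH3J2 fell with aphids in susceptible leaves of day 1. It was the 1 gene of the 60 that passed the test for a cultivar difference in the day 1 aphid effect. It had 6.81, 6.43 and 5.92 in infested susceptible leaves of day 1, against 7.78, 7.42 and 7.20 in uninfested ones. The uninfested arrays were all higher, and the fall was 1.08 ± 0.30 (adjusted p = 0.0433), a call lost in all 6 fits that left out 1 array, with adjusted p-values of 0.0513 to 0.257. In resistant leaves of day 1 it had 7.10, 7.43 and 5.81 with aphids, against 5.72, 6.02 and 5.68 without. Infested replicates 1 and 2 were the higher ones and replicate 3 lay among the uninfested arrays. The uninfested values are near the 5th percentile and not shown to be above background, which limits every difference taken against them. The difference was 0.98 ± 0.30 (adjusted p = 0.62); without infested replicate 3 it was 1.46 ± 0.23 (adjusted p = 0.0417). The difference between cultivars in the aphid effect was 2.05 ± 0.42 (adjusted p = 0.0422). That call was lost without infested resistant replicate 1 or 2, uninfested resistant replicate 1 or 2, uninfested susceptible replicate 1, or any 1 of the infested susceptible arrays. On day 7 all 12 arrays lay between 5.41 and 6.17, also near the 5th percentile. The other probe set of ALDH3J2 had −1.18 ± 0.36 in susceptible leaves of day 1 (adjusted p = 0.0592).

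**Figure D3:**
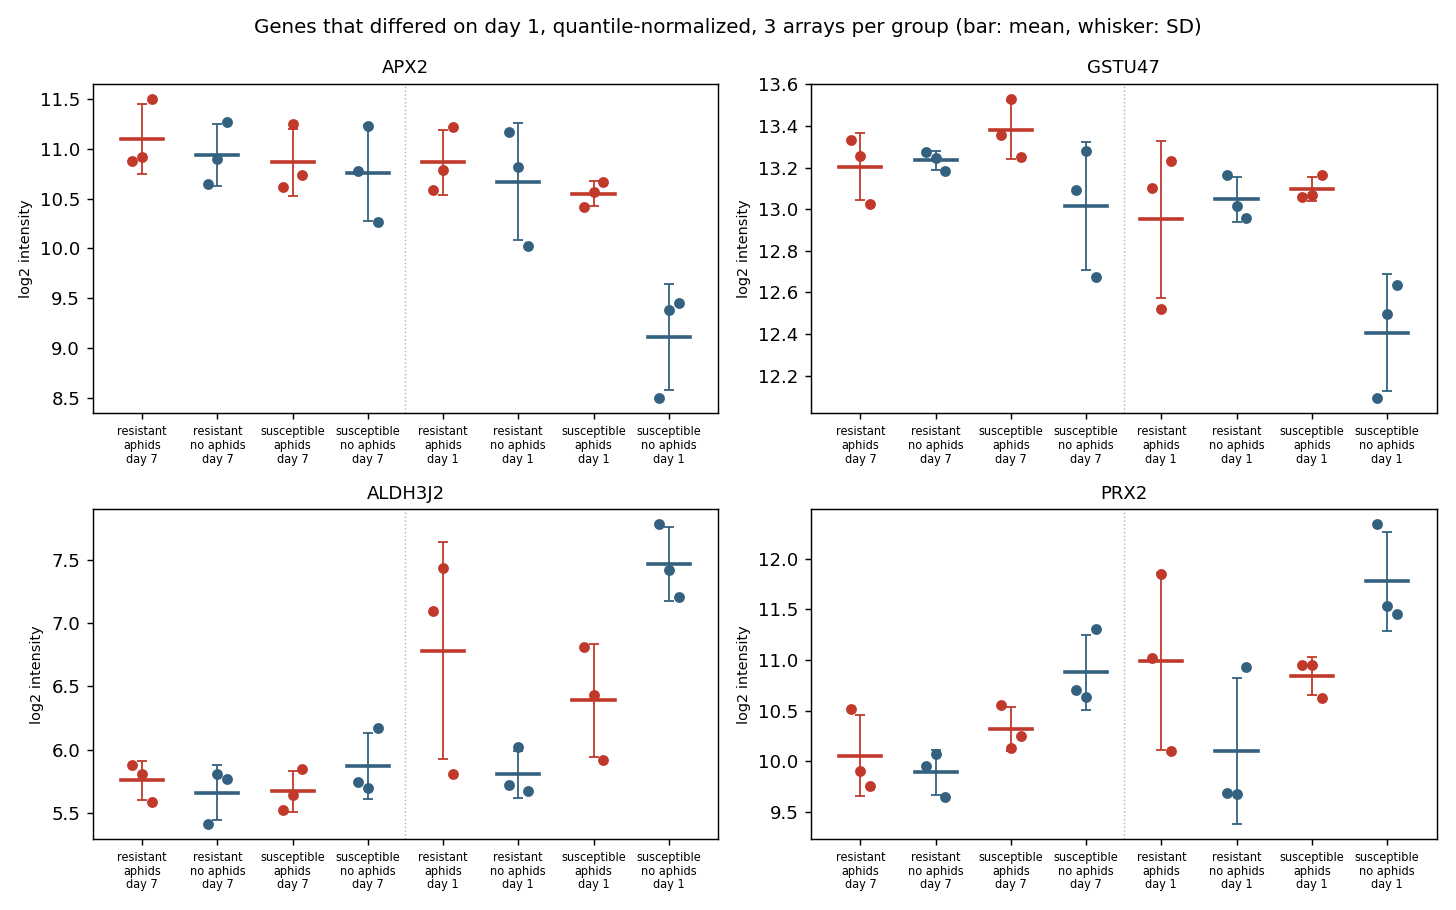
Quantile-normalized log2 intensity (vertical axis) of APX2, GSTU47, ALDH3J2 and PRX2 in the 8 groups (horizontal axis), with points, bars, whiskers and the dotted line as in the plot of day 7 genes. Uninfested susceptible leaves of day 1 had the lowest group mean of APX2 (9.11) and GSTU47 (12.41) and the highest of ALDH3J2 (7.47) and PRX2 (11.77).

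Between uninfested leaves of the cultivars on day 1, 13 of the 60 genes were higher in resistant leaves and 6 lower (31.7%), against 18.7% of all probe sets (8.91% higher, 9.79% lower). With only the brighter probe sets in the fit, 4537 of 18797 passed, among them 18 of the 45 genes of that level. Without scaling 18 were higher and 2 lower, with the median of all probe sets at 0.20. Groups were separated without overlap in 22 genes above and 13 below (58.3%), against 39.6% of probe sets. The 13 higher genes were APX2, the tau GST genes GSTU26, GSTU27, GSTU30, GSTU37, GSTU47, GSTU59 and GSTU62, both zeta GST genes (GSTZ2 and GSTZ3, an isomerase class that acts in tyrosine breakdown), and ALDH2B4, ALDH6B1 and ALDH7B1. The 6 lower ones were PRX2, DHAR3, GSTU3, GSTU5, GSTU17 and ALDH3J2. Of the neighbouring genes, GSTU26, GSTU27 and GSTU30 were higher, by 1.09 ± 0.31, 1.06 ± 0.30 and 0.57 ± 0.17, as were GSTZ2 and GSTZ3, by 0.75 ± 0.16 and 0.54 ± 0.17. GSTU28, which lies between GSTU27 and GSTU30, was not called (−0.17 ± 0.15), nor were GSTU58 beside GSTU59, GSTU41 near GSTU37, or GSTU16 and GSTU18 on either side of GSTU17. GSTU59, GSTU47 and GSTU37 were higher by 1.05 ± 0.25, 0.64 ± 0.18 and 0.52 ± 0.17 and ALDH6B1, of the class that acts in valine breakdown, by 0.66 ± 0.19. GSTU17 and GSTU5 were lower, at −0.89 ± 0.29 and −0.83 ± 0.26, as was DHAR3, at −1.44 ± 0.36.

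GSTU62 had 8.65, 8.54 and 7.60 in uninfested resistant leaves of day 1, against 5.59, 7.36 and 6.54 in uninfested susceptible ones. The groups did not overlap, and the lowest array, replicate 1, was near the 5th percentile, so no fold is given for the difference of 1.77 ± 0.48 (adjusted p = 0.0162). GSTU3 had 9.63, 8.73 and 8.82 in uninfested resistant leaves, against 11.89, 10.82 and 10.39 in uninfested susceptible ones. All susceptible arrays were higher, and the difference was −1.98 ± 0.64 (adjusted p = 0.0383). ALDH2B4, of the mitochondrial class, whose probe set had the highest mean of the ALDH genes, had 12.82, 12.76 and 12.56 in uninfested resistant leaves against 11.95, 12.26 and 12.07 in uninfested susceptible ones, a difference of 0.62 ± 0.17 (adjusted p = 0.0191). Its groups were close together but did not overlap. The uninfested susceptible arrays of day 1 used here are those with the 3' minus 5' and phloem signals given above, whose part in these differences was not tested; 6 of the 8 phloem markers were themselves called lower in resistant leaves (median −1.11). With the 3' minus 5' covariate 0 of the 60 genes passed, and leaving out uninfested susceptible replicate 1 gave 6, uninfested resistant replicate 1 gave 6 and uninfested resistant replicate 2 gave 7. APX2, PRX2, ALDH3J2, ALDH7B1, GSTU59 and GSTZ2 passed in all 6 fits that left out 1 array.

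Between days in uninfested susceptible leaves, 6 of the 60 genes were higher on day 7 and 3 lower (15%), against 10.5% of all probe sets (5.22% higher, 5.28% lower). The higher ones were APX2, GSTU30, GSTU47, GSTU62, GSTZ2 and ALDH5F2, a succinic semialdehyde dehydrogenase gene, which had 9.91, 9.91 and 9.92 on day 7 against 9.33, 9.42 and 9.30 on day 1. The days were far apart relative to the spread of ALDH5F2, whose difference was 0.56 ± 0.12 (adjusted p = 0.0118). DHAR3, ALDH3J2 and SFERH-2 were the lower ones. The count was 1 without day 1 replicate 1, 1 without day 7 replicate 2 and 4 without day 7 replicate 1, and 0 with the 3' minus 5' covariate or with the 2 groups fitted alone. In uninfested resistant leaves 2 genes were higher on day 7 (ALDH10A2 and ALDH3H1) and 4 lower (GST3, GSTU26, GSTU51 and SFERH-2), or 10%, against 3.91% of all probe sets (2% higher, 1.91% lower). GST3, a tau class gene, had 6.65, 6.27 and 7.01 on day 7 against 7.88, 7.75 and 7.82 on day 1. The day 1 arrays lay close together above the day 7 ones, and the difference was −1.17 ± 0.31 (adjusted p = 0.0416). The count was 2 or 3 when any 1 of these 6 arrays was left out.

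**Figure D4:**
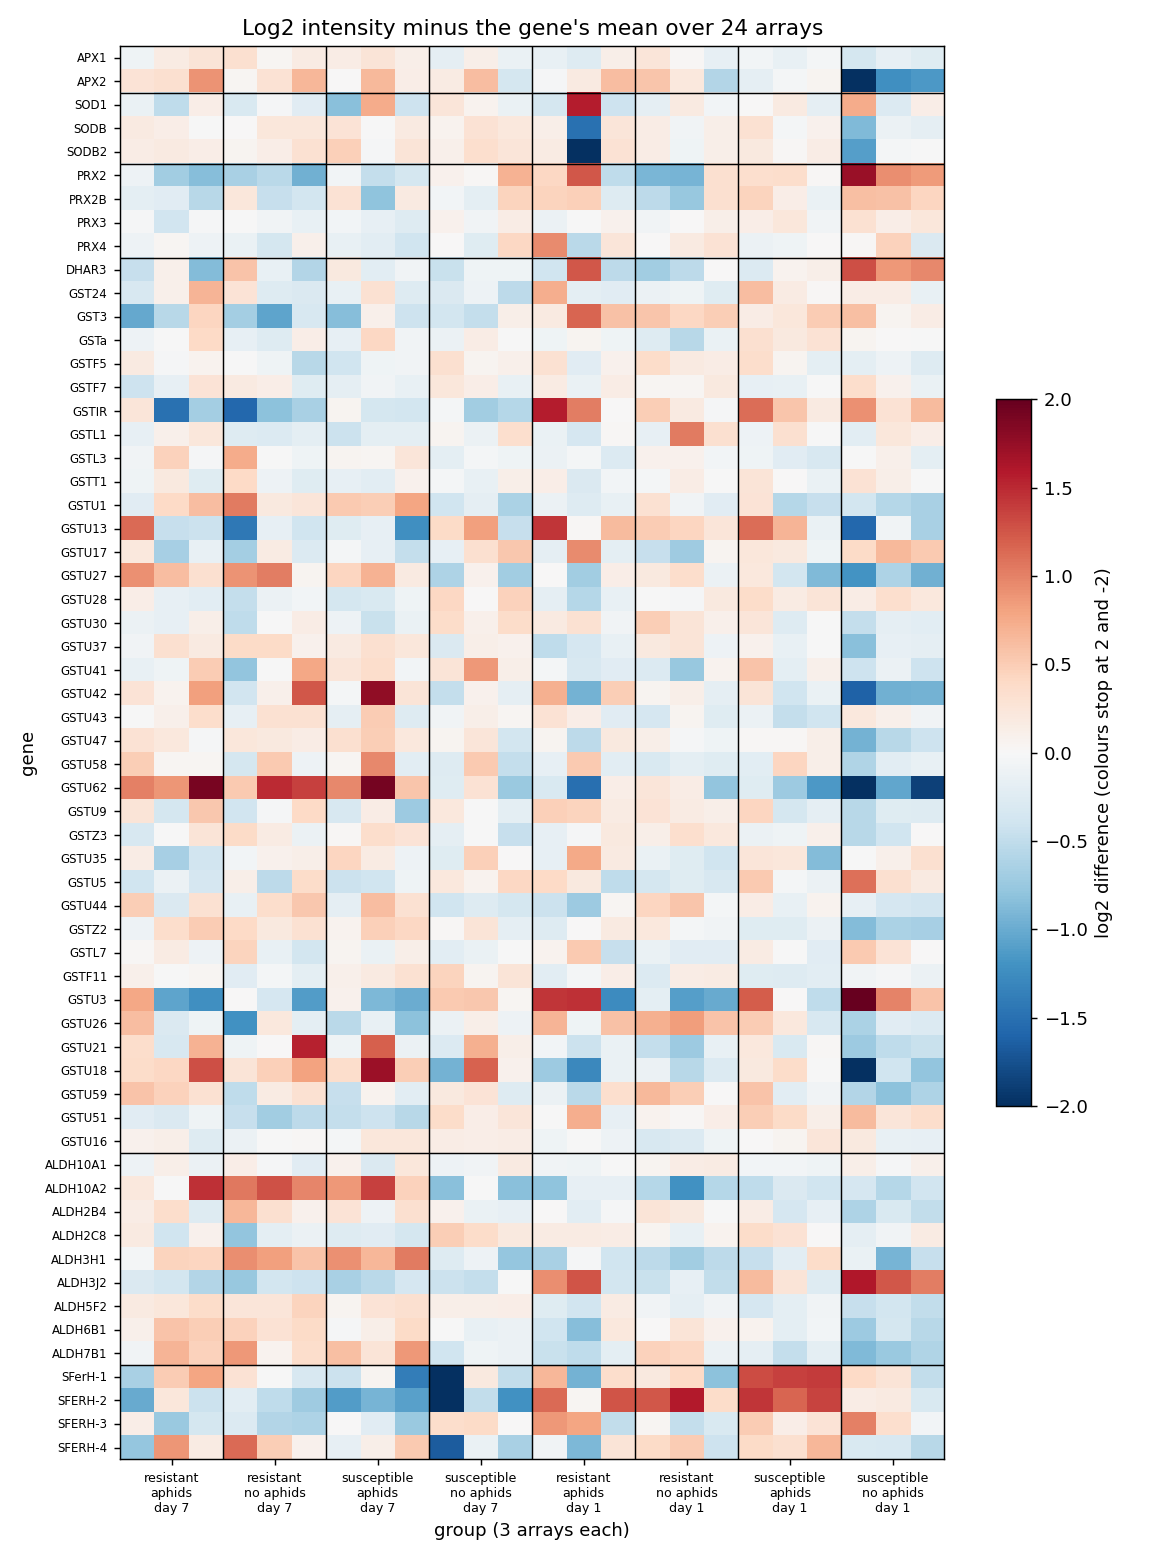
Log2 intensity of the 60 genes (rows, by family: APX, SOD, PRX, GST, ALDH, SFER) on the 24 arrays (columns, 3 per group), each minus the gene's mean over all arrays; colours stop at 2 and −2. Uninfested susceptible leaves of day 1, the last 3 columns, are low for APX2 and GSTU62 and high for PRX2, DHAR3 and ALDH3J2, and infested resistant day 1 replicate 2 is low for SODB (12.40) and SODB2 (11.04).

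The difference between days in the aphid effect, day 7 minus day 1, passed for 0 of the 60 genes in either cultivar, as for 0% of all probe sets in both. At an unadjusted p under 0.05 limma gave 7 of the 60 genes in resistant leaves (11.7%, against 2.75% of all probe sets) and 13 in susceptible ones (21.7%, against 15.8%). The smallest p among the 60 was that of ALDH2C8 in susceptible leaves, given above, and of GSTL1, a lambda class gene, in resistant leaves, at 0.84 ± 0.31 (adjusted p = 1).

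The 4 ferritin genes differed in how the values of their representative probe sets were ordered. That of SFERH-2 has the suffix _x_at, and those of SFerH-1 and SFERH-3 have _s_at, so these can match more than 1 transcript. SFERH-2 had 11.36, 11.54 and 11.38 in infested susceptible leaves of day 7, against 10.36, 11.98 and 11.25 in uninfested ones, and 13.89, 13.63 and 13.82 in infested leaves of day 1, against 12.62, 12.65 and 12.16 in uninfested ones. The groups overlapped on day 7 and were well apart on day 1. The day 1 difference was 1.31 ± 0.38 (13.78 ± 0.14 infested against 12.48 ± 0.27 uninfested) and missed the threshold at an adjusted p of 0.0505; 2 of the gene's 4 probe sets passed, at 1.48 ± 0.42 (adjusted p = 0.0483) and 1.15 ± 0.33 (adjusted p = 0.0496). In resistant leaves SFERH-2 had 12.07 ± 0.62 with aphids and 11.99 ± 0.25 without on day 7, and 13.28 ± 0.67 with aphids and 13.53 ± 0.63 without on day 1. The difference between cultivars in the day 1 aphid effect was −1.56 ± 0.54 (adjusted p = 0.107). What passed for SFERH-2 was the difference between days: in uninfested leaves it was lower on day 7 than on day 1 by 1.54 ± 0.38 log2 units in resistant leaves, a 2.91-fold difference (adjusted p = 0.0267), and by 1.28 ± 0.38 in susceptible ones (adjusted p = 0.038). All 4 of its probe sets were lower and called in susceptible leaves and 3 in resistant leaves. Each call was kept in 1 of the 6 fits that left out 1 array.

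SFerH-1 had 12.04, 12.11 and 12.14 in infested susceptible leaves of day 1, against 11.13, 11.003 and 10.25 in uninfested ones. The infested arrays were nearly equal and above every other array of the experiment for this gene, and the difference of 1.30 ± 0.57 did not pass (adjusted p = 0.164). Its uninfested susceptible arrays of day 7 were 8.10, 10.93 and 10.25, the widest spread of any group. Another probe set of SFerH-1 had 0.93 ± 0.59 in susceptible leaves of day 1. On day 7 it had 1.13 ± 0.59, where the representative one had 0.40 ± 0.57. SFERH-4 had 10.86, 10.80 and 11.14 in infested susceptible leaves of day 1, against 10.17, 10.16 and 9.92 in uninfested ones, without overlap, a difference of 0.85 ± 0.41 (adjusted p = 0.2); on day 7 it was 0.97 ± 0.41 (adjusted p = 0.211). The representative probe set of SFERH-3 lay the other way, at −0.13 ± 0.32 on day 1 and −0.56 ± 0.32 on day 7. The gene's other probe sets, of means 10.17 and 5.57, had −0.05 ± 0.30 and 0.28 ± 0.15 on day 1. On day 7 they had −0.24 ± 0.30 and 0.01 ± 0.15. The ferritin median in susceptible leaves was 1.08 on day 1 and 0.31 on day 7, with 0 of 4 called on either day.

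**Figure D5:**
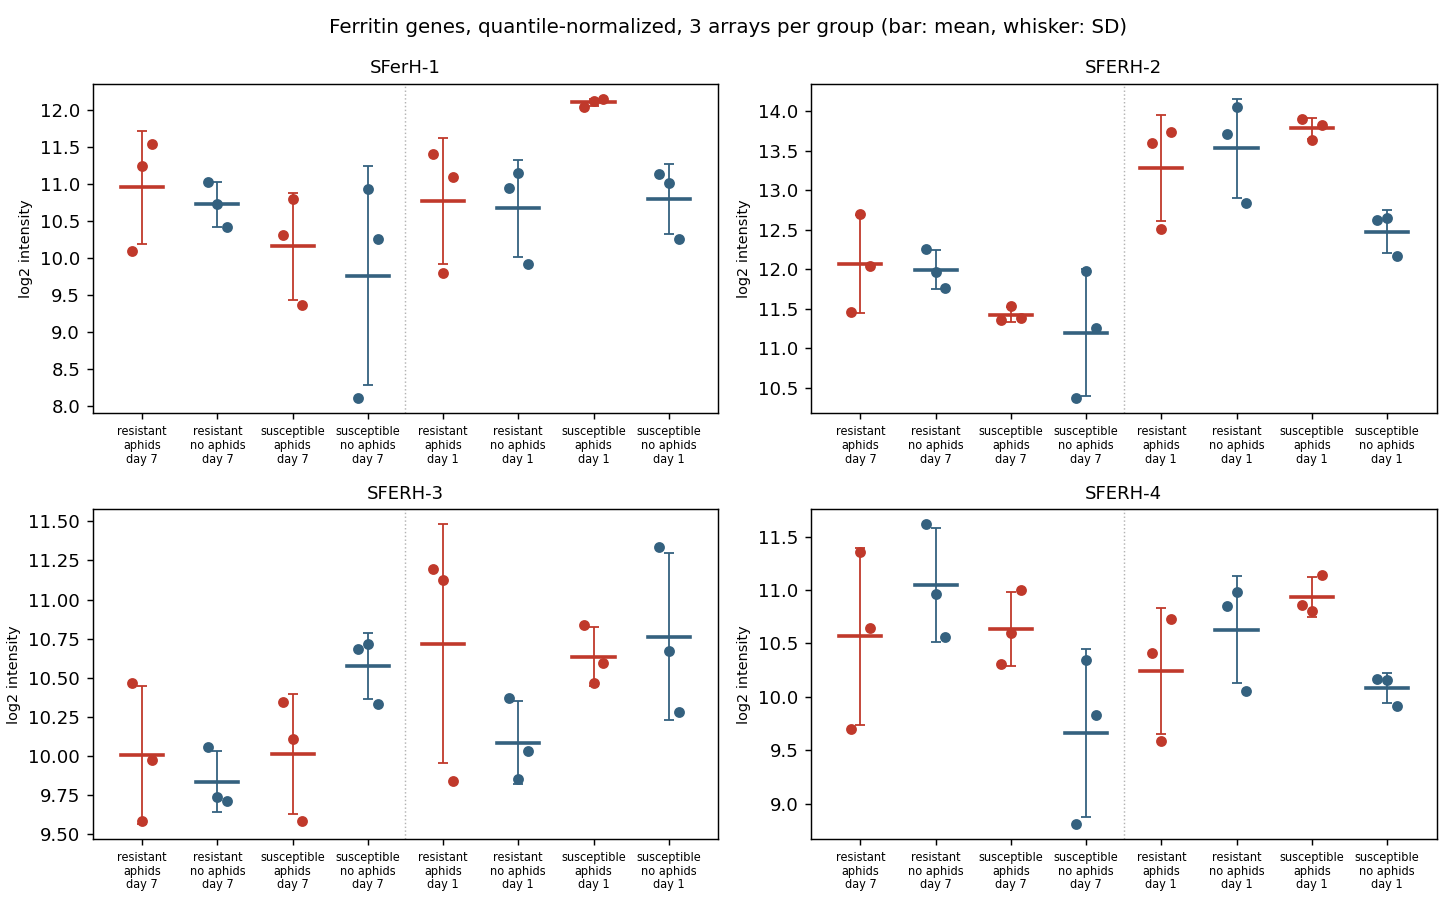
Quantile-normalized log2 intensity (vertical axis) of the 4 ferritin genes SFerH-1, SFERH-2, SFERH-3 and SFERH-4 in the 8 groups (horizontal axis), with points, bars, whiskers and the dotted line as in the plot of day 7 genes. For SFERH-2 the day 1 groups have means of 12.48 to 13.78 and the day 7 groups 11.20 to 12.07.

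Other genes of the same pathways were taken from lists of names, and none of them passed in the 4 aphid comparisons. No gene matched the names of thioredoxins, peroxiredoxins or NADPH oxidases. Of the 3 catalase genes, whose products also remove hydrogen peroxide, CAT1 had 0.46 ± 0.24 and CAT5 −0.26 ± 0.16 in susceptible leaves of day 7. DHAR4 and GR, for regenerating ascorbate and glutathione, had −0.41 ± 0.17 and −0.25 ± 0.13 on day 1. HGS, the 1 gene for homoglutathione synthesis, lay between −0.05 and 0.20 in the 4 comparisons. AOX1, an alternative oxidase gene of mitochondria, had 1.89 ± 0.65 on day 1 (adjusted p = 0.0842) and AOX2 −0.51 ± 0.19, with a median of 0.50 over 3 genes. Of 5 UDP-glycosyltransferase genes, which attach sugars to small molecules, 4 lay below 0 on day 7 in susceptible leaves (median −0.79), UGT78K1 at −1.11 ± 0.31 (adjusted p = 0.0616) and IF7GT at −0.97 ± 0.29. Of 4 genes matched for iron and metal handling, DMT1, a metal transporter gene, had 0.34 ± 0.18 on day 7 and MT2, a metallothionein gene, 0.14 ± 0.16; IF7MaT, at 1.498 ± 0.52 on day 1, matched only through a synonym and is an isoflavone malonyltransferase. All 6 heat shock genes lay above 0 in susceptible leaves of day 1 (median 0.63) and 5 of 6 on day 7; HSP22.3 had 1.25 ± 0.35 on day 7 (adjusted p = 0.0597). Of 6 genes matched as other peroxidases only Ep and GMIPER1 (LOC547499) have peroxidase names; Ep had 0.06 ± 0.14 and GMIPER1 −0.29 ± 0.45 on day 1.

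Marker genes of the leaf and of other tissues moved with some of these comparisons. In susceptible leaves of day 7, 6 of 38 seed storage and maturation genes were called higher with aphids, and 29 lay above 0 (median 0.25). Of 17 root and nodule genes 1 was called higher, but only 3 lay above 0 (median −0.09). Of all probe sets, 1.94% were called higher there. Of the 2 leaf photosynthesis genes, LHCP was called lower, by 1.13 ± 0.20 (adjusted p = 0.0056). CAB3 was not called, and the median of the 2 was −0.76. PM3, a seed maturation gene, rose by 2.82 ± 0.46. Of the 8 phloem markers, 0 lay above 0 in susceptible leaves on either day and 0 passed, at medians of −0.45 on day 7 and −0.56 on day 1; in resistant leaves 7 lay above 0 on day 7 and 8 on day 1. In whole leaves, fewer cells of a type and less RNA per cell cannot be told apart. The part of these shifts in the results above was not tested.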

How the data were processed

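The samples were 24 arrays of total RNA, biotin-labelled per the labels, in 8 groups of 3 (cultivar, aphids, day). The deposited table held log2 intensities; the submitters' processing notes name RMA, GCRMA and limma without a role or version, and the summarisation step and array build are not given in the sources used here. Array medians ran from 7.0 to 8.04, and 99.6% of values were whole numbers on the linear scale within 0.01. The 37593 soybean probe sets were quantile normalized. Differences were fitted with limma 3.58.1 in R 4.3.3 over all 8 groups (16 residual and 3.65 prior degrees of freedom), with Benjamini-Hochberg adjustment over all soybean probe sets in each of 12 comparisons; the fit was tested on simulated data. Depth does not apply to arrays: the number of arrays limits precision. The labels do not say whether a sample pools plants, so p-values measure the spread between samples, which may be technical.

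Probe sets were named from the platform annotation (8677 with 1 gene, 370 with several, 28546 with none; 8652 matched the RefSeq gene table of Glycine_max_v4.0). Members and lists were chosen with earlier results of these data known. Genes given with values were those called in any comparison, the gene whose probe set had the highest mean in each family, the 3 of smallest p in each aphid effect and cultivar by aphid difference, and the 1 of smallest p where none was called; in other lists, up to 2 genes above and 2 below 0. GSTU18, GSTU28, SOD1, SODB2, SFerH-1, SFERH-3 and SFERH-4 were added after their values were seen. Alternatives were no scaling, median centring, brighter probe sets only, a trended and robust variance, a replicate block, only the groups compared, the 3' minus 5' signal as a covariate, the mean over a gene's probe sets, and leaving out each array. No sequences were used here.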

Additional observations from a re-analysis of the deposited data

Results flagged for a closer look

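The aphid effect differed between the cultivars by a test of the difference itself, resistant minus susceptible, in 4 results. On day 7 the difference was −2.0 for ALDH10A2, −1.75 for ALDH3H1 and 1.10 for GSTU51 (LOC548030), on the log2 scale. On day 1 it was 2.05 for ALDH3J2. In the other probe set of the gene the same difference was −0.05 ± 0.22 for ALDH3H1 and 2.06 ± 0.51 for ALDH3J2, and neither passed.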

How the results depend on the processing

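Counts of the 60 genes called depended on single arrays and on the scaling; the cause was not tested. Leaving out single arrays gave 0 to 5 genes for aphids in susceptible leaves of day 7, 0 to 3 on day 1, 0 to 0 in resistant leaves of day 7 and 0 to 1 on day 1. It gave 0 to 4 for the cultivar by aphid difference of day 7 and 0 to 11 of day 1, and 0 to 0 for the day by aphid difference in each cultivar. Between uninfested cultivars it gave 0 to 6 on day 7 and 6 to 19 on day 1, and between days 2 to 3 in resistant and 1 to 8 in susceptible leaves.

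Without scaling, 0 genes passed for aphids in susceptible leaves of day 1, 0 for the cultivar by aphid difference of day 1, 1 between uninfested cultivars on day 7 and 3 between days in uninfested susceptible leaves. Median centring gave 2 and the brighter probe sets alone 0 for the cultivar by aphid difference of day 1. With only the groups compared in the fit, the counts were 5 for aphids in susceptible leaves of day 1, 0 and 0 for the cultivar by aphid differences of day 7 and day 1, 1 between uninfested cultivars on day 7 and 0 between days in susceptible leaves. With the 3' minus 5' covariate they were 9 and 0 for aphids in susceptible leaves of day 7 and day 1, 0 for the cultivar by aphid difference of day 1, 0 between uninfested cultivars on day 1 and 0 between days in susceptible leaves. Among the differences recomputed, those called and the ones of smallest p in the aphid comparisons, none changed sign; other values in the text were not recomputed.

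Samples that shared a replicate number did not deviate together in every pair: in susceptible leaves the correlations were 0.07, 0.24 and 0.39 on day 7 and −0.08, −0.0016 and 0.08 on day 1, and in resistant leaves −0.33, −0.36 and 0.46 on day 7 and 0.11, −0.29 and −0.32 on day 1. Over all groups, the mean correlation between arrays of different groups was 0.08 at the same number and −0.04 at other numbers. The main fit did not take the numbers to pair samples. With a replicate block the counts were 4 and 3 for aphids in susceptible leaves of day 7 and day 1, 3 and 1 for the cultivar by aphid differences, 5 and 22 between uninfested cultivars, and 7 and 8 between days in resistant and susceptible leaves. With 3 arrays per group, the number of arrays limits what can be called.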
